A study of Caenorhabditis elegans with 18 samples.

Results

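The mitochondrial ribosome of the nematode Caenorhabditis elegans was followed through the mRNAs of its nuclear-encoded proteins. All genes of the count table whose WormBase symbol begins with mrpl- (named for the large subunit) or mrps- (named for the small subunit) were taken. This gave 70 of 23368 genes, 41 with a large and 29 with a small subunit symbol. Membership and subunit rested on the symbol alone and used no measured value. The true subunit of each protein was not checked, so some may be assigned wrongly in the subunit values below. Mitochondrial ribosomes make the few respiratory chain subunits that are encoded in mitochondrial DNA, and their own proteins are translated in the cytosol and imported. In C. elegans, lowering some of these proteins, mrps-5 among them, is known to slow respiration, to switch on the mitochondrial unfolded protein response and to lengthen life. Antimycin A blocks complex III of the respiratory chain, which holds a subunit made on these ribosomes.

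The libraries came from whole animals collected as early adults, in 6 groups of 3 libraries. The genotypes were N2 (wild type, WT), nhr-45(tm1307) and nhr-178(gk1005), and nhr-45 and nhr-178 encode nuclear hormone receptors. Animals of all 6 groups were first arrested at the first larval stage for 18 hours. Each genotype was then fed E. coli HT115 from that stage with DMSO, the solvent, or with 0.3 µM antimycin A in DMSO. Every group therefore shared the arrest, the HT115 food and the solvent, and each mutant is 1 strain with 1 allele. At least 1000 animals were pooled for a library, and the series text speaks of biological triplicates without saying whether cultures were separate. The p-values below then measure the spread between these libraries.

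Total counts ran from 1772887 (replicate 2 of nhr-45 in antimycin) to 9488037 (replicate 3 of WT in DMSO), and replicate 1 of WT in antimycin had 3143437. The lowest and the latter are called the 2 shallow libraries below. The counts of the targeted genes do not check the genotypes. In DMSO nhr-45 stood at 5.88 ± 1.2 CPM (counts scaled to a common library size with TMM factors) in WT and 4.29 ± 1.34 in its own mutant (SD, n = 3), and nhr-178 had 6 counts over the WT libraries and 2 over its own mutant's. In antimycin nhr-45 stood at 7.19 ± 0.799 CPM in WT and 6.31 ± 1.38 in its mutant, and nhr-178 had 15 counts in WT and 22 in its mutant. Summed markers of oocytes and eggshell, yolk, germline, intestine and body muscle were present in every library. Sperm and moulting genes varied far more between libraries. Summed sperm genes ran from 0.217 CPM (replicate 1 of nhr-178 in DMSO) to 833.7 (replicate 3 of nhr-45 in antimycin). Summed moulting genes ran from 27.4 to 1416.3 CPM, with the same libraries at the ends.

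All 70 genes passed the filter on low counts, as did 10981 genes in all. A member had 2 to 2302 counts in a library, with a median of 138. The genes lay on chromosomes I (15), II (12), III (22), IV (11) and V (10), and none lay on X. Chromosome III held 31.4% of them against 16.8% of all genes tested, and X held 14.5% of all genes tested. A protein-coding gene on the same strand ended within 200 bases upstream of 20 members (28.6%), against 12.3% of 10831 tested protein-coding genes. In 19 of these 20 the gap was 82 to 117 bases. Spacing of about this size is known in C. elegans from genes of 1 operon, which are transcribed together, but operon membership itself was not read from the data. 34 members stood in such a pair, either as the upstream or as the downstream gene. On chromosome V, mrps-2 is followed after 106 bases by mrpl-4, both members of the set.

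Exons of 20 members overlapped an exon of another counted gene, on the same strand in 7 and on the other strand in 13. Whether the authors counted by strand is not given in the sources used here, so reads of these genes and of their partners cannot be told apart. Among the genes described below this applies to mrpl-12 (with W09D10.5, other strand), mrpl-10 (with slc-25A32, other strand), mrpl-1 (with emc-6, same strand), mrps-11 (with inx-11), mrps-27 (with hinf-1) and mrpl-44 (with mccc-2). It also applies to mrps-18B (with gldi-7), mrpl-53 (with nhr-19), mrps-35 (with sws-1), mrpl-34 (with aha-1) and mrpl-42 (with lpl-1).

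The mRNA levels per length spanned a 344.4-fold range. Levels are given as CPM per kb of exon, as mean ± SD over all 18 libraries. The highest was mrpl-12 (III:10707761-10708521, plus strand, WBcel235), the counterpart of the bacterial stalk protein that recruits translation factors, at 213.3 ± 37.7. It was followed by mrps-11 (V:12493239-12494622, minus strand), a platform protein of the small subunit, at 204.1 ± 28.1. Then came mrpl-40 (III:87559-89243, plus strand) at 185.4 ± 24.6 and mrps-25 (IV:1056892-1057619, plus strand) at 173.2 ± 26.9, both proteins of mitochondrial ribosomes without a bacterial counterpart. Neighbours in the order of these 4 differed by less than their SDs.

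At the low end stood mrpl-46 (IV:800818-804749, plus strand) at 2.83 CPM per kb and mrpl-37 (II:13568077-13575068, minus strand) at 2.64. Still lower were mrpl-45 (III:1196389-1202008, minus strand), whose mammalian counterpart sits near the exit tunnel and ties the ribosome to the inner membrane, at 1.22, and mrps-31 (III:3627234-3630372, minus strand) at 0.619. The median over the 70 genes was 30.3 CPM per kb. It was 27.8 for the large and 35.7 for the small subunit, and 32.9 for the 43 proteins with a bacterial counterpart against 27.8 for the 25 found only in mitochondrial ribosomes. In WT in DMSO, cytosolic ribosomal protein genes had a median of 1167.4 CPM per kb, nuclear-encoded respiratory chain subunits 183.9, mitochondrial translation factors 6.78 and mitochondrial tRNA synthetases 4.86. The order of the 70 levels was nearly the same in every group, with Spearman's rho of 0.971 to 0.984 between WT in DMSO and each of the other 5 groups, across genes that share the same libraries.

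**Figure D1:**
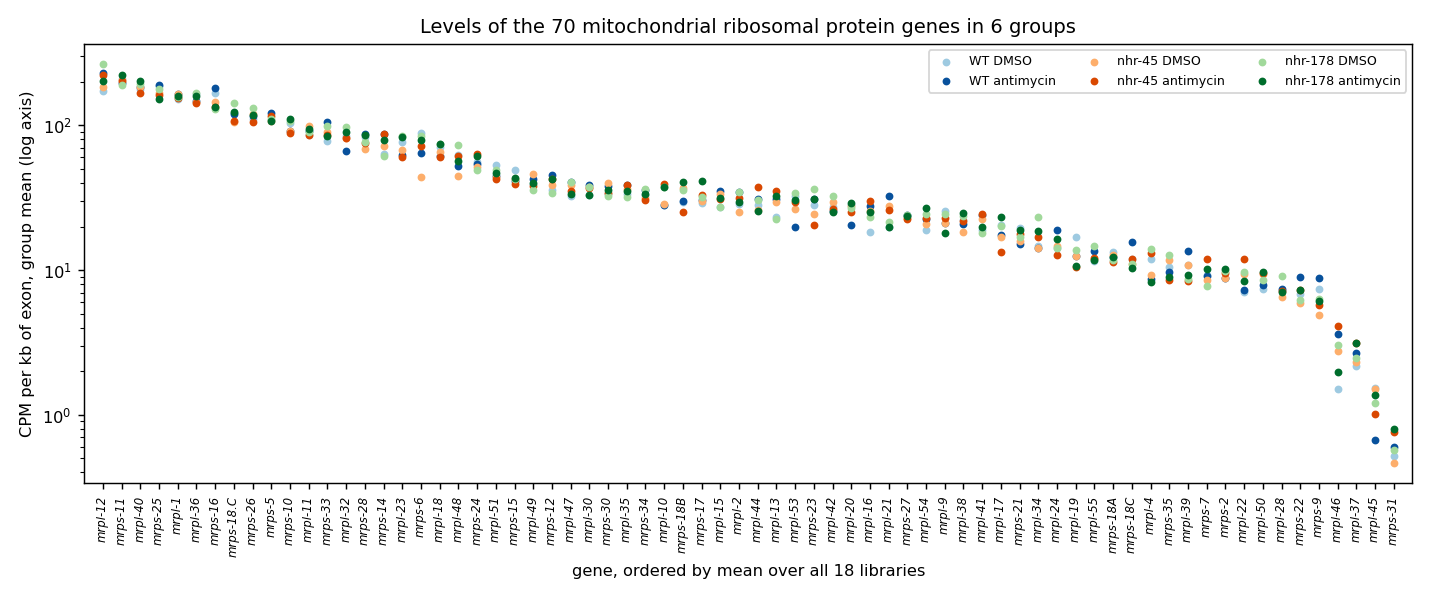
Level of each of the 70 genes in CPM per kb of exon on a log axis, ordered from highest to lowest, with the mean of each of the 6 groups as a point. The points of a gene lie close together while the genes span 344.4-fold.

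Added over the 70 genes, the group means ran from 2670.1 to 2859.2 CPM. The summed CPM was 2710.0 ± 132.7 in WT in DMSO and 2827.0 ± 110.4 in WT in antimycin (SD, n = 3). It was 2670.1 ± 141.2 and 2700.9 ± 139.4 in nhr-45 in DMSO and antimycin, and 2859.2 ± 17.4 and 2794.8 ± 94.4 in nhr-178. Single libraries ran from 2507.1 to 2954.4, and the genes took 0.248% to 0.301% of all counts. Antimycin and DMSO libraries overlapped within nhr-45 and within nhr-178, and in WT 2 of the values in antimycin lay within the DMSO range. In DMSO the nhr-178 libraries (2840.7 to 2875.1) all lay above those of WT (2559.2 to 2808.8) and of nhr-45 (2507.1 to 2754.2). In antimycin the genotypes overlapped. Differences in the sum were not tested. The ratio of large to small subunit CPM was 0.942 ± 0.0911 in WT in DMSO and 0.947 ± 0.016 in WT in antimycin. It was 1.0 ± 0.0905 and 1.02 ± 0.0231 in nhr-45, and 1.04 ± 0.0551 and 0.981 ± 0.0882 in nhr-178, and the libraries in antimycin overlapped those in DMSO in each genotype. CPM are shares of a library, and in whole animals fewer cells of a type and less RNA per cell cannot be told apart.

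**Figure D2:**
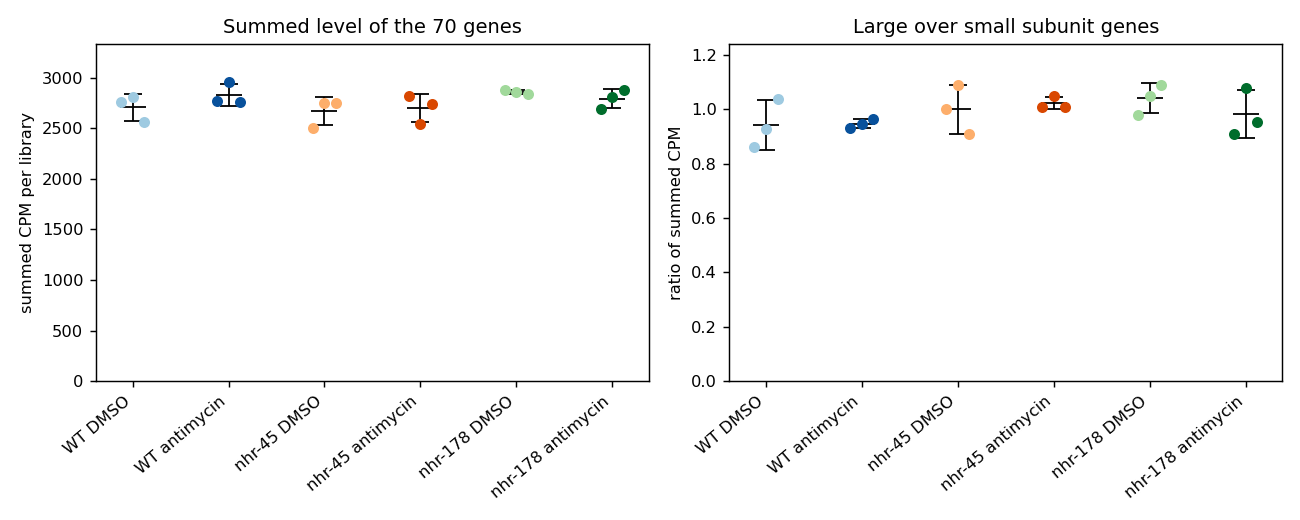
Left, CPM summed over the 70 genes in each library; right, the ratio of summed large to summed small subunit CPM. Points are libraries, lines are the mean and SD of 3 libraries; every library lies between 2507.1 and 2954.4 CPM on the left and between 0.86 and 1.09 on the right.

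The group means of most members lay close together. The highest of the 6 group means was 1.38 times the lowest for the median member, and 1.66 times for the median of all genes tested. The ratio stayed under 1.5 in 48 members (68.6%), against 37.6% of all genes tested and 37.9% of the 9054 genes within the members' range of mean CPM. The ratio was highest in mrpl-46 (2.73) and mrpl-45 (2.26), which had 7 to 35 and 2 to 37 counts a library. Next was mrps-6 (2.0, to 2 significant digits), with 91 to 615 counts. The biological coefficient of variation within groups had a median of 17.9% in members and 18.9% in all genes. At an adjusted p below 0.05, 2 members (2.86%) were called in at least 1 of the 7 comparisons between 2 groups, against 30.4% of all genes tested.

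Antimycin in WT asked whether blocking complex III changes these genes. None of the 70 was called by edgeR's quasi-likelihood test, against 3.01% of all genes tested, and DESeq2 also called none, against 3.35%. There were 6 members at an unadjusted p under 0.05, against 14.5% of all genes. The median log2 change was 0.07 against 0.01 over all genes tested, with 44 genes above 0. The 95% interval of the change lay within 2-fold in either direction for 61 of the 70, and the estimate was under 0.5 log2 units in 65. Libraries did not overlap in 6 genes that were higher and 5 that were lower in antimycin, against 10.7% and 9.39% of all genes tested.

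mrps-5 (V:12563487-12565801, plus strand), a small subunit protein with a bacterial counterpart, is the member best known from lifespan work. It read 162.7, 162.7 and 152.5 CPM in WT in DMSO and 193.6, 167.3 and 180.2 in WT in antimycin. The antimycin libraries all lay above those in DMSO, by a log2 change of 0.18 with a 95% interval of -0.09 to 0.45 (edgeR adjusted p = 0.59). In nhr-45 the change was 0.14 (-0.14 to 0.41) and in nhr-178 it was -0.05 (-0.32 to 0.22), with overlapping libraries in both. In none of the comparisons between 2 groups did the mrps-5 estimate exceed 0.19 log2 units in size.

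The highest and the lowest estimates in WT belonged to mrpl-46 and mrpl-45, both low in counts. mrpl-46 read 1.54, 1.83 and 2.38 CPM in DMSO and 5.53, 5.34 and 2.99 in antimycin, from 13 to 29 counts a library. All 3 antimycin libraries were above all 3 in DMSO, but the log2 change of 1.22 had an interval of 0.35 to 2.09 and an adjusted p of 0.141 with edgeR. mrpl-45 read 4.39, 3.14 and 2.27 CPM in DMSO and 0.976, 0.369 and 2.99 in antimycin, from 2 to 37 counts. These groups overlapped, and the log2 change of -1.04 had an interval of -2.11 to 0.02 (adjusted p = 0.357). The next in size, mrpl-21 at 0.72 (adjusted p = 0.209) and mrpl-53 at -0.69 (0.461), had more counts, and mrps-31, with the fewest counts of all, was at 0.23 (0.922).

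In nhr-45, antimycin changed 23.5% of all genes tested but 1 of the 70 members. At an unadjusted p under 0.05 there were 4 members, against 35.7% of all genes. The median log2 change was -0.01 against 0.0 over all genes tested, and the members ran from -0.55 (mrps-18B) to 0.72 (mrps-6), while the middle 90% of all genes ran from -0.72 to 2.43. Without replicate 1 of nhr-45 in antimycin mrps-18B was at -1.02 and was called (adjusted p = 0.0193). The interval lay within 2-fold for 60 of the 70. Libraries did not overlap in 2 members that were higher (mrpl-12 and mrps-6) and in 1 that was lower (mrps-35), against 21.1% and 14.9% of all genes tested. Leaving out replicate 2 of nhr-45 in DMSO gave 3 called members, as mrpl-4 (0.98, adjusted p = 0.0256) and mrpl-48 (0.66, 0.0333) joined mrps-6. Without both shallow libraries the called member was mrpl-44 alone, at a log2 change of 0.87 (adjusted p = 0.0116). It read 84.9, 33.3 and 79.9 CPM in nhr-45 in antimycin and 40.2, 37.7 and 59.8 in DMSO, so that the shallow replicate 2 lay below every DMSO library.

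The called gene was mrps-6, whose product is the counterpart of bacterial ribosomal protein S6 on the platform of the small subunit. In nhr-45 it read 25.0, 42.6 and 29.8 CPM in DMSO and 56.7, 48.9 and 54.4 in antimycin. In WT it read 73.0, 72.9 and 48.7 in DMSO and 52.0, 66.5 and 24.2 in antimycin. The nhr-45 DMSO libraries were lower than those of WT in DMSO and of nhr-45 in antimycin without overlap, whereas WT libraries overlapped between treatments. In nhr-178 it read 75.8, 59.0 and 50.9 in DMSO and 61.2, 67.2 and 47.3 in antimycin, again with overlap.

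mrps-6 rose with antimycin in nhr-45 by a log2 change of 0.72 (SE 0.26, 95% interval 0.18 to 1.26, edgeR adjusted p = 0.0458). It was lower in nhr-45 than in WT in DMSO by a log2 change of -0.99 (SE 0.26, interval -1.52 to -0.47, adjusted p = 0.0423). Both comparisons use the same 3 libraries of nhr-45 in DMSO, so they are not separate evidence. Between nhr-45 and WT the antimycin change differed by 1.18 log2 units (SE 0.37, interval 0.43 to 1.93), with an adjusted p of 0.0606, which was not called. DESeq2 gave 0.0463 for this difference.

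Both calls stand near the threshold. Over the 27 alternatives the adjusted p of the rise in nhr-45 was 0.00459 to 0.174 and it was called in 17. The call was lost on leaving out replicate 2 of WT in DMSO, 1 or 3 of nhr-45 in DMSO, 2 of nhr-178 in DMSO, 1 of WT in antimycin, any of nhr-45 in antimycin or 1 of nhr-178 in antimycin, and without both shallow libraries (0.0564). The lower level in DMSO had an adjusted p of 2.05e-05 to 0.192 and was also called in 17. It was lost on leaving out replicate 1 or 2 of WT in DMSO, 1 or 3 of nhr-45 in DMSO or 1 or 3 of nhr-45 in antimycin. It was lost as well when both shallow libraries were left out (0.055), when scaling by total count alone (0.0533), with the stricter filter (0.058) and with only the compared groups in the fit (0.0528).

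In nhr-178 antimycin called none of the 70 with edgeR or with DESeq2, against 2.7% and 2.56% of all genes tested. There were 3 at an unadjusted p under 0.05, against 12.4% of all genes. The median log2 change was 0.01 (0.0 over all genes tested), and members ran from -0.72 (mrpl-4) to 0.53 (mrps-31). Libraries did not overlap in 4 that were higher and 5 that were lower, against 10% and 8.19% of all genes tested. The interval lay within 2-fold for 63 of the 70.

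**Figure D3:**
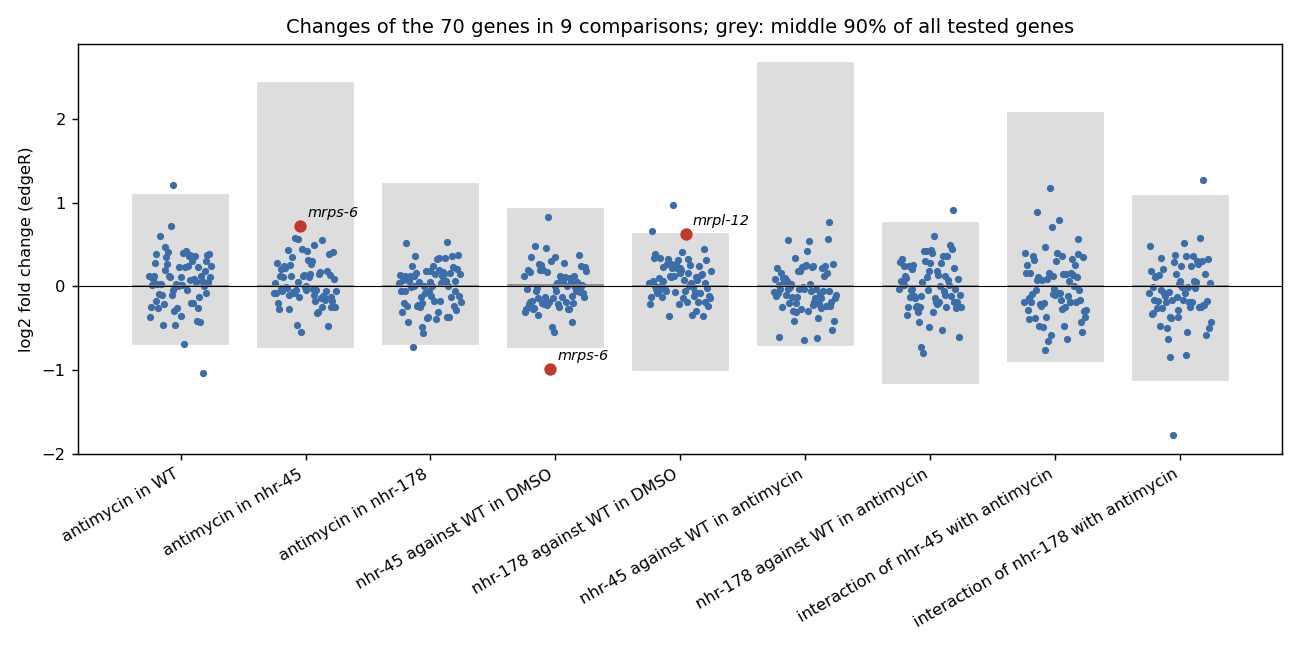
Log2 fold changes of the 70 genes in each comparison, a point per gene, with the middle 90% of all tested genes as a grey band and the called members in red with their names. In nhr-45 in antimycin against DMSO the members lie between -0.55 and 0.72, and the middle 90% of all genes between -0.72 and 2.43.

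In DMSO, nhr-45 differed from WT in 1 of the 70, mrps-6, against 1.54% of all genes tested, and 3 members had an unadjusted p under 0.05, against 10.9% of all genes. Libraries did not overlap in 2 that were higher and 3 that were lower, against 7.56% and 7.42% of all genes. nhr-178 differed from WT in DMSO in 1, mrpl-12, against 1.15% of all genes tested, and 4 had an unadjusted p under 0.05, against 10.1%. There, libraries did not overlap in 7 that were higher and 0 that were lower, against 7.66% and 9.53% of all genes tested. The 7 were mrpl-10, mrpl-12, mrpl-34, mrpl-42, mrpl-46, mrps-23 and mrps-33. The median log2 difference of members from WT was -0.02 in nhr-45 and 0.06 in nhr-178, against 0.02 and 0.0 over all genes.

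mrpl-12 read 130.4, 108.7 and 99.1 CPM in WT in DMSO and 175.2, 169.9 and 177.3 in nhr-178 in DMSO. The 3 nhr-178 libraries lay above every DMSO library of WT and of nhr-45 (134.4, 134.2 and 93.6). In antimycin it read 129.5, 173.4 and 152.9 in WT, 156.5, 137.7 and 142.6 in nhr-45 and 128.3, 137.8 and 133.6 in nhr-178. WT and nhr-178 thus differed in DMSO and overlapped in antimycin.

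In DMSO mrpl-12 was higher in nhr-178 than in WT by a log2 difference of 0.63 (SE 0.15, 95% interval 0.33 to 0.93, edgeR adjusted p = 0.0274). This was called in 22 of 27 alternatives, with adjusted p from 0.003 to 0.168. It was not called on leaving out replicate 2 or 3 of WT in DMSO or any 1 of the 3 libraries of nhr-178 in DMSO. With antimycin the log2 change was 0.43 in WT (interval 0.13 to 0.73, adjusted p = 0.125), 0.27 in nhr-45 (-0.03 to 0.57, 0.192) and -0.39 in nhr-178 (-0.69 to -0.09, 0.216). The change in nhr-178 differed from that in WT by -0.82 log2 units (SE 0.21, interval -1.24 to -0.39), with an adjusted p of 0.109 in edgeR and 0.0144 in DESeq2.

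mrpl-10 (II:8277578-8278515, minus strand) is the counterpart of the bacterial protein that holds the stalk on which mrpl-12 sits. Its group means had the same order as those of mrpl-12 in DMSO and another order in antimycin, and the difference between the genes was not tested. Its CPM were 22.4 ± 2.6 in WT and 29.8 ± 2.77 in nhr-178 in DMSO, and 22.6 ± 2.62 and 30.1 ± 6.24 in antimycin (SD, n = 3). In nhr-45 it was 22.9 ± 0.795 in DMSO and 31.6 ± 8.24 in antimycin. The nhr-178 libraries lay above those of WT in DMSO but overlapped them in antimycin, with log2 differences of 0.41 and 0.4 (adjusted p = 0.477 and 0.339). The antimycin change in nhr-45 was 0.42 (interval 0.0 to 0.83, adjusted p = 0.139), and it was called without replicate 1 of nhr-45 in antimycin, at 0.61 (0.0484).

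**Figure D4:**
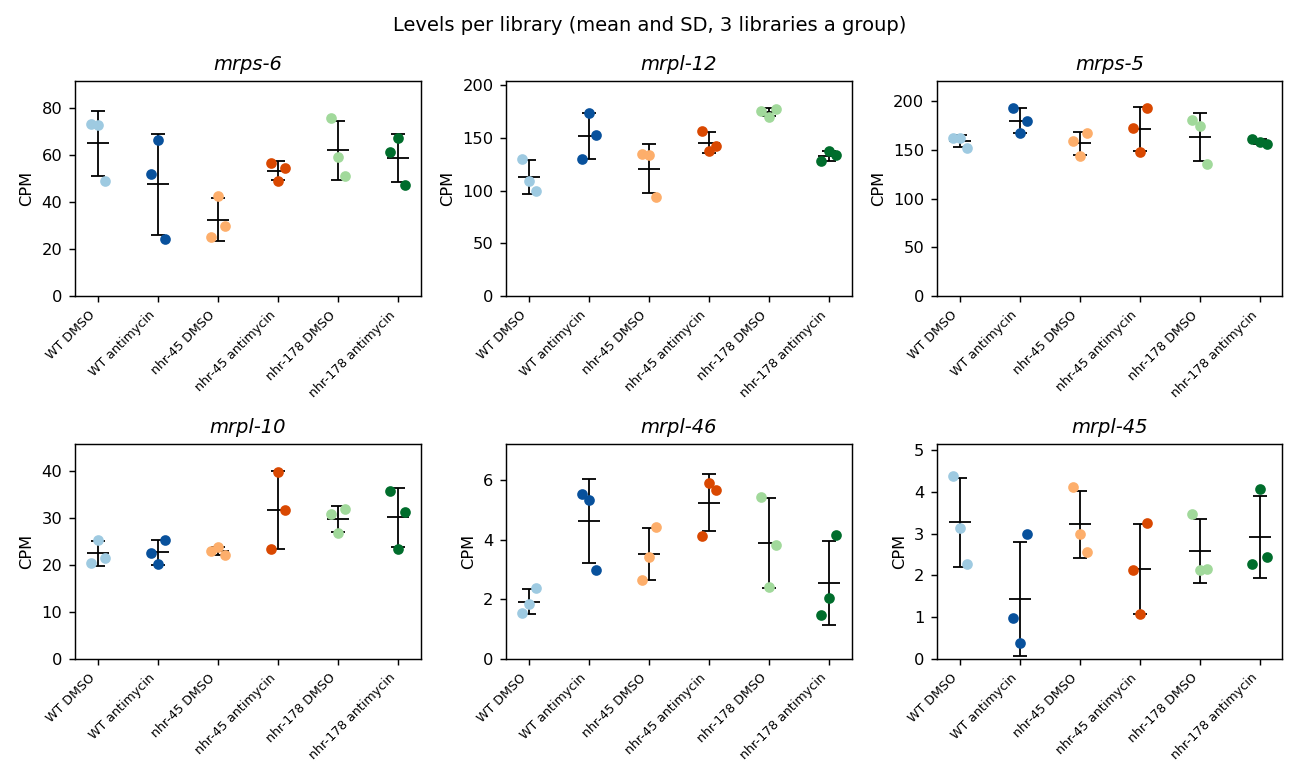
CPM of mrps-6, mrpl-12, mrps-5, mrpl-10, mrpl-46 and mrpl-45 in each of the 18 libraries, with the mean and SD of each group of 3; each panel starts at 0. The nhr-45 DMSO libraries of mrps-6 (25.0 to 42.6) and the nhr-178 DMSO libraries of mrpl-12 (169.9 to 177.3) stand apart from WT in DMSO, and mrps-5 stays between 135.5 and 193.7.

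In antimycin, neither mutant differed from WT in a called member. nhr-45 gave 0 of 70 with edgeR and with DESeq2, against 15.1% and 12.6% of all genes tested, and 5 at an unadjusted p under 0.05 against 26.8% of all genes. Without both shallow libraries 1 member was called, mrpl-44, at 0.94 (adjusted p = 0.0203). Libraries did not overlap in 1 that was higher, mrpl-4, and 6 that were lower, against 18.2% and 12.8% of all genes tested. nhr-178 also gave 0 of 70 with both tools, against 3.63% and 4.16% of all genes tested, and 3 at an unadjusted p under 0.05 against 15.6%. Without replicate 2 of WT in antimycin, mrpl-23 was called at 0.89 (adjusted p = 0.0458). The nhr-178 libraries did not overlap with those of WT in 4 members that were higher and 3 that were lower, against 9.84% and 10.6%.

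The test of whether a mutant's antimycin response differed from that of WT called none of the 70 in either mutant with edgeR. The shares of all genes tested were 4.68% for nhr-45 and 0.264% for nhr-178, and 3 and 5 members had an unadjusted p under 0.05, against 18.8% and 8.25% of all genes. DESeq2 called 1 in each, mrps-6 and mrpl-12, against 5.98% and 0.76% of all genes. In nhr-45, edgeR called 2 without replicate 2 of nhr-45 in DMSO, mrps-6 and mrpl-4, and 1, mrps-6, without replicate 3 of WT in DMSO or replicate 2 of WT in antimycin. The interval of the difference lay within 2-fold for 42 and 44 of the 70. For the other members these libraries do not set so narrow a limit. The most extreme estimate was that of mrpl-46 in nhr-178, at -1.78 (interval -3.01 to -0.55, adjusted p = 0.356), from 7 to 29 counts a library over the 4 groups.

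A single test for any difference among the 6 groups, added after the data had been seen, called mrpl-12 (adjusted p = 0.0127) and mrps-6 (0.0384), or 2 of 70, against 28.8% of all genes tested. There were 7 members at an unadjusted p under 0.05, against 40.1% of all genes. mrpl-12 was called in 25 of 25 alternatives, with adjusted p from 0.00759 to 0.0427. mrps-6 was called in 17 of 25, with adjusted p from 1.27e-05 to 0.163. Its call was lost with the stricter filter, without both shallow libraries, and on leaving out replicate 1 or 2 of WT in DMSO, 1 or 3 of nhr-45 in DMSO, 1 of nhr-178 in DMSO or 3 of nhr-45 in antimycin.

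The smallest estimates over all 7 two-group comparisons were those of mrps-27, mrpl-1, mrpl-40 and mrps-2. mrps-27 read 36.6 ± 5.36 CPM in WT in DMSO and 37.4 ± 4.04 in antimycin, 35.2 ± 3.75 and 35.0 ± 2.48 in nhr-45, and 36.8 ± 3.64 and 36.4 ± 6.39 in nhr-178. Its estimates never passed 0.1 log2 units in size. mrpl-1, the counterpart of the bacterial stalk protein at the tRNA exit, stayed within 0.12, mrpl-40 within 0.14 and mrps-2 within 0.18. The mrps-2 estimates were imprecise, with a 95% interval of -0.58 to 0.62 for antimycin in WT, where that of mrpl-1 was -0.18 to 0.41. These were chosen after their values were seen, as the smallest of 70, so their closeness to 0 is a description.

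The neighbours mrps-2 and mrpl-4 can be set side by side. mrps-2 changed with antimycin by a log2 of 0.02 in WT, -0.01 in nhr-45 and 0.05 in nhr-178, and mrpl-4 by -0.46, 0.44 and -0.72, none of them called. mrpl-4 read 10.4, 14.8 and 10.8 CPM in WT in DMSO and 9.11, 9.4 and 7.82 in antimycin, and in nhr-45 it read 7.19, 15.2 and 5.59 in DMSO and 12.5, 17.2 and 10.3 in antimycin. The nhr-45 DMSO values were spread widely, and without replicate 2 its antimycin change there was 0.98 (adjusted p = 0.0256). The difference between the 2 genes was not tested. dap-3, a further small subunit protein known in mammals as mS29, is not covered by a symbol rule of mrpl- and mrps-. It lies directly upstream of mrps-22, its changes ran from -0.39 to 0.45 and none of its 9 comparisons was called (lowest adjusted p 0.467).

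Members varied from library to library with little in common. Across the 18 libraries, the Pearson correlation of log2 CPM had a median of 0.0291 over 2415 pairs of members and passed 0.5 in 2.9% of pairs. The median was 0.0329 within the large and 0.038 within the small subunit. Cytosolic ribosomal protein genes had a median of 0.198 and respiratory chain genes 0.146, and all genes tested -0.0015. These pairs share their libraries and depths, the mrp genes have fewer counts, and the values are descriptions.

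The other genes of mitochondrial translation are read against the shares of all genes tested that antimycin called, 3.01% in WT, 23.5% in nhr-45 and 2.7% in nhr-178. At an unadjusted p under 0.05 those shares were 14.5%, 35.7% and 12.4%. Of 12 tested translation factors, antimycin called 0 in any genotype with edgeR or DESeq2, with 2, 1 and 1 at an unadjusted p under 0.05 in WT, nhr-45 and nhr-178. The only edgeR call over the 9 comparisons was era-1, whose place in this list is uncertain. It was lower in nhr-45 than in WT in antimycin (log2 -0.56 ± 0.17 SE, adjusted p = 0.0242), where 15.1% of all genes were called. The number of listed factors called there was 0 without replicate 2 of WT in antimycin or replicate 2 of nhr-45 in antimycin. Of 15 mitochondrial tRNA synthetases antimycin also called 0 in any genotype with either tool, with 1, 3 and 0 at an unadjusted p under 0.05. In nhr-45 this count was 2 without replicate 3 in DMSO and 1 without replicate 2 in antimycin. kars-1, the lysyl-tRNA synthetase, was lower in nhr-178 than in WT in DMSO by a log2 of -0.65 (adjusted p = 0.00539, with 1.15% of all genes called), which was lost without replicate 1 of nhr-178 in DMSO. In antimycin it was -0.45 (adjusted p = 0.0442, with 3.63% of all genes called), a call absent in 17 of 27 alternatives. Whether kars-1 and the other listed synthetases serve mitochondria alone was not checked. Of 17 tested chaperones, proteases and regulators of the mitochondrial stress response, antimycin called 0 in WT and in nhr-178 with either tool, with 3 and 1 at an unadjusted p under 0.05. The count in WT was 1 without replicate 1 in antimycin. In nhr-45 it raised dve-1 (1.6 ± 0.24 SE), a transcriptional regulator of that response, and lowered the protease gene lonp-1 (-0.66) and the chaperone gene hsp-75 (-0.64). These 3 became 1 without replicate 1 of nhr-45 in DMSO. hsp-60 and hsp-6, chaperone genes often used as reporters of that response, were not called with antimycin, at log2 changes of -0.19 and -0.08 in WT, -0.17 and 0.08 in nhr-45, and -0.07 and 0.0 in nhr-178.

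The products of these ribosomes join a respiratory chain whose other subunits are encoded in the nucleus. Of 49 such subunits, antimycin in nhr-45 raised 11 and lowered 1, a share near the 23.5% of all genes tested, with a median log2 change of 0.21 against 0.0 over all genes. Those raised include ucr-2.1 (0.93 ± 0.16 SE) and ucr-2.2 (0.67), core subunits of complex III, asb-2 (0.66), a subunit of the ATP synthase, and sdha-1 (0.59), of complex II. nduf-2.2, of complex I, was lower (-0.47 ± 0.13). The count of 12 became 7 without replicate 1 and 6 without replicate 3 of nhr-45 in antimycin, and 4 with only the compared groups in the fit. In WT only asg-1, of the ATP synthase, was called (0.84 ± 0.19, adjusted p = 0.0103), and it was not called without replicate 3 of WT in DMSO or replicate 1 of WT in antimycin. DESeq2 called 3 in WT, and 13 had an unadjusted p under 0.05 with edgeR, against 14.5% of all genes. In nhr-178 neither tool called any, with 3 at an unadjusted p under 0.05. The difference between genotypes is not read from these counts. Of 80 cytosolic ribosomal protein genes 3 rose in nhr-45, rpl-11.2 (1.05), rpl-25.1 (0.9) and rpl-14 (0.42), and neither tool called any in WT or nhr-178, where 8 and 6 had an unadjusted p under 0.05. Whether the respiratory chain and the mitoribosome genes differ in their response was not tested.

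Genes of other tissues and stages moved with antimycin in nhr-45, beside the 70, in a comparison that called 23.5% of all genes tested. Of 23 tested sperm genes of the msp family 22 rose, and their summed CPM went from 124.2 in DMSO to 759.8 in antimycin. All 12 tested moulting genes rose, from 53.3 to 1112.3. With the stricter filter these counts were 10 and 3, but that filter removes genes of low level before the test. A removed gene could not be called, and how many were still tested is not given here. All 6 yolk genes fell, from 7197.9 to 2684.0, and of 17 oocyte and eggshell genes 16 fell, from 16068.3 to 10801.5, and 10 fell without replicate 2 of nhr-45 in DMSO. Of 17 germline genes 5 fell, from 3672.4 to 2803.4. That count was 1 without replicate 1 and 8 without replicate 3 of nhr-45 in DMSO, and 3 without replicate 1 and 2 without replicate 3 of nhr-45 in antimycin. Of 98 tested cuticle collagen genes 68 rose and 7 fell, and leaving out 1 replicate gave 71 to 76 called. In DMSO, nhr-45 against WT called 1.54% of all genes tested. Of the sperm genes 9 were higher and 0 lower, and of the cuticle collagens 18 were higher and 2 lower. nhr-178 against WT in DMSO called 1.15%, with 6 sperm genes, 15 collagens and 2 of 8 body muscle genes lower. Leaving out 1 replicate gave 5 to 11 called sperm genes for nhr-45 and 2 to 7 for nhr-178. Yolk, oocyte and germline genes had 0 calls in either. The part of these shifts in the values of mrps-6 or of any other member was not tested.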

How the data were processed

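The values are whole-number counts per gene in a single table deposited by the authors, whose 18 columns matched samples by title, with 0 columns left unused. The submitters' processing notes list R 3.6.3, RSEM, Bowtie2 and DESeq2 without saying what each did. Sources used here do not give the genome build, the annotation, the strand setting or the treatment of multi-mapping reads. edgeR 4.0.16 (R 4.3.3) tested the counts of all 18 libraries by quasi-likelihood, with TMM scaling, filterByExpr, 1 mean per group and 12 residual degrees of freedom. DESeq2 1.42.0 was the alternative tool. The stricter filter asked for 10 counts in every library of a group and a mean of 5 CPM. P-values are two-sided, adjusted by Benjamini-Hochberg within a comparison and called below 0.05. In the main edgeR fit the adjustment ran over all 10981 genes. Where an alternative tested other genes, as DESeq2 did (11357 for antimycin in WT), it ran over those. SE is the size of the log2 change over the square root of F, and intervals cover 95%. Exon lengths and positions came from the Ensembl WBcel235 annotation by WormBase identifier, and the authors' build may differ. Libraries within groups differed by more than sampling noise (chi-square per degree of freedom 6.25 to 20.9), so none was another library sequenced again. Whether cultures were separate cannot be seen from these values. The scripts were tested on simulated data. Genes were named by rule as called members, the 4 highest and 4 lowest by level, mrps-5, mrpl-12, mrpl-10 and up to 4 called genes of a list. Others are extremes or small counts chosen after their values were seen. Members, lists and tests were chosen with earlier results of these data known.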

Additional observations from a re-analysis of the deposited data

How the results depend on the processing

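Over 27 alternatives no direction was reversed for any called value. The number of members called with antimycin in nhr-45 was 1 and became 2 with no filter. For nhr-45 against WT in DMSO it was 1 and became 0 under scaling by total count alone, the stricter filter, the fit of only the compared groups, and without both shallow libraries. For nhr-45 against WT in antimycin it was 0 and became 1 without both shallow libraries. The interaction of nhr-45 with antimycin went from 0 to 1 with no filter, with DESeq2 and with the replicate block, and that of nhr-178 from 0 to 1 with DESeq2. The test over all 6 groups called 2, and 1 with the stricter filter. The median change with antimycin in nhr-45 was -0.01, and became 0.065 with the stricter filter and 0.061 without both shallow libraries. The causes were not tested.

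Leaving out 1 replicate at a time gave 0 to 0 members with antimycin in WT, 0 to 3 in nhr-45 and 0 to 0 in nhr-178. It gave 0 to 1 for nhr-45 and 0 to 1 for nhr-178 against WT in DMSO, 0 to 0 and 0 to 1 in antimycin, 0 to 2 and 0 to 0 for the interactions with nhr-45 and nhr-178, and 1 to 5 over all groups. Median changes ran from 0.016 to 0.119 with antimycin in WT, -0.033 to 0.061 in nhr-45 and -0.026 to 0.053 in nhr-178. They ran from -0.049 to 0.008 and 0.015 to 0.083 for the mutants in DMSO, and -0.102 to -0.002 and -0.03 to 0.03 in antimycin. For the interactions they ran from -0.121 to 0.004 and -0.106 to 0.004.

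Same-numbered libraries did not deviate together over all genes tested, with 45 correlations of -0.0858 to 0.0872. A batch shared by same-numbered libraries and limited to few genes could not be seen in these values. With the replicate as a block the nhr-45 interaction of mrps-6 was 1.27 (adjusted p = 0.0163). Depth limits mrpl-45, mrpl-46 and mrps-31, which have few counts, and 2 libraries are shallow.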
